A study of Felis catus with 6 samples.

Results

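The S100A genes encode small calcium-binding proteins, and 3 of them, S100A2, S100A4 and S100A6, are among the 633 genes in the authors' deposited table of a feline kidney cell experiment. They were taken by symbol, as every listed gene named S100A followed by a number. All 3 were lower on average in cells given DOX with peptide E than in cells given DOX alone. So are 53.7% of all listed genes, and for S100A6 the groups overlapped. The table lists only genes that the authors had marked as differing between these same libraries. The difference between the groups therefore chose the 3 genes, and it is described here without a test.

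PolyA RNA-seq was performed on PETCC2610, a cell line from feline kidney. The DOX group (3 libraries) received the agent used to induce senescence, a lasting arrest of division in which cells secrete inflammatory proteins. The DOX+PeptideE group (3 libraries) received the same agent plus peptide E, which according to the title of the series comes from fermentation by Bifidobacterium adolescentis. The labels give no doses, times or passage, do not spell out DOX, and do not say how the 3 cultures of a group were separated, so the spread between libraries may be technical. Both groups carry DOX, and cells without it were not analysed here, so no value can be set against cells before senescence. The comparison asks how S100A transcripts differ when peptide E is present in DOX-treated cells.

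S100 proteins form small dimers in which each subunit has a pair of EF-hand calcium-binding loops. When calcium rises, a subunit turns outward a hydrophobic surface that binds target proteins, and some S100 proteins are also released and act on cell surface receptors such as AGER (RAGE) and TLR4. S100A2 is a mostly nuclear member typical of basal layers of stratified epithelia. S100A4, also called fibroblast-specific protein, binds non-muscle myosin and is widely used as a marker of mesenchymal change in kidney tubule cells. S100A6, or calcyclin, is an abundant member of epithelial cells and fibroblasts that was first found through its regulation in the cell cycle.

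The values are the authors' normalized expression values, given with no unit, and the depth of the libraries is unknown. Whether the values are corrected for transcript length is not stated, so levels of different genes are placed on the deposited scale only. In a bulk sample, fewer cells expressing a gene and less RNA per cell cannot be told apart. S100 genes resemble one another in sequence, and how reads matching several of them were assigned is not stated.

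S100A2, which binds p53 and is known from basal keratinocytes, stood at 795.57, 825.46 and 761.14 in DOX replicates 1, 2 and 3. With peptide E it stood at 491.48, 495.06 and 427.11. The groups were far apart, with the highest peptide E library below every DOX library and with little spread inside either group. The means were 794 ± 32.2 and 471 ± 38.2 (SD, n = 3 each), so the peptide E mean was 0.593 of the DOX mean. On the log2(value + 1) scale used below, the difference between the group means was -0.75, against a pooled SD between libraries of 0.094.

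S100A4, the myosin-binding member, stood at 273.64, 248.59 and 248.58 in the DOX libraries and at 187.52, 153.38 and 143.37 in the peptide E libraries. Here too the groups did not overlap, and peptide E replicate 1 lay nearest to the DOX libraries. The means were 257 ± 14.5 and 161 ± 23.1 (SD, n = 3 each), a ratio of 0.628. The log2 difference was -0.68 with a pooled SD of 0.15.

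S100A6 had the highest values of the 3 genes on the deposited scale, at 2879.36, 2327.85 and 2724.87 with DOX and at 2526.21, 1924.91 and 1517.82 with peptide E. Peptide E replicate 1 lay above DOX replicate 2, so the groups overlapped, while the other 2 peptide E libraries lay below all DOX libraries. The means were 2644 ± 285 and 1990 ± 507 (SD, n = 3 each), a ratio of 0.753. The log2 difference was -0.44 with a pooled SD of 0.28, and its size depended on single libraries. Without peptide E replicate 3 it was -0.26, and without peptide E replicate 1 it was -0.62.

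**Figure D1:**
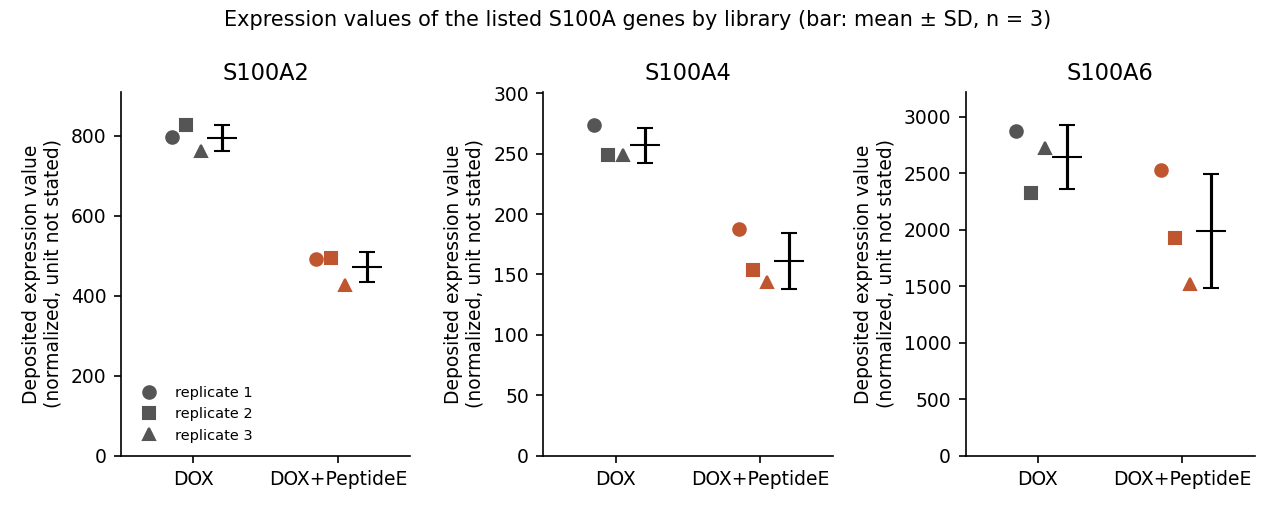
Deposited expression values (vertical axes from 0, normalized, unit not stated) of S100A2, S100A4 and S100A6 in the 3 DOX and 3 DOX+PeptideE libraries, with a symbol for each replicate number and the mean ± SD beside them. The groups are separate for S100A2 and S100A4, while for S100A6 peptide E replicate 1 (2526) lies above DOX replicate 2 (2328).

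Non-overlapping groups were thus found in 2 of the 3 genes, both lower with peptide E. Over all listed genes, 76.1% had groups that did not overlap, in either direction, and 32.7% were lower without overlap. The table was chosen on this contrast, so nothing is read from these shares. Of the values by which the authors chose the genes, the p-values lie far apart among the members, while the fold changes of S100A2 and S100A4 are close. S100A2 has a fold change of 0.497 in the authors' deposited table (unadjusted p = 1.09e-15, adjusted p = 6.41e-12), S100A4 one of 0.529 (p = 1.22e-08, adjusted p = 6.54e-06) and S100A6 one of 0.638 (p = 0.0408, adjusted p = 0.168). By unadjusted p in the authors' deposited table, sorted from the smallest, S100A2 is number 2 of 633, S100A4 number 21 and S100A6 number 595. S100A6 therefore lies just inside the table, whose largest unadjusted p is 0.0498 and whose smallest fold is 1.5 in either direction, against 1.57 lower for S100A6. An adjusted p under 0.05 is given to 2 of the 3 genes in the authors' deposited table, and to 56.7% of all listed genes (24.2% when only lower genes are counted). Genes just outside these limits were not analysed here.

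The fold changes in the authors' deposited table are further below 1 than the ratios of the deposited values. Compared with the log2 fold changes in the authors' deposited table, the log2 ratio of deposited group means was higher by 0.26 for S100A2, 0.25 for S100A4 and 0.24 for S100A6. Over the 196 listed genes whose group means were both 5 or more, the median of this offset was 0.27, so the S100A genes shared the offset of the table. With that median taken off, the log2 differences were -1.02 for S100A2, -0.94 for S100A4 and -0.70 for S100A6. The size of each change thus depends on the scale.

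How far the 3 genes moved in each library is shown by the deviation of log2(value + 1) from the gene's own DOX mean. S100A2 deviated by -0.69, -0.68 and -0.89 in peptide E replicates 1, 2 and 3. S100A4 deviated by -0.45, -0.74 and -0.84, and S100A6 by -0.06, -0.45 and -0.79. In replicate 3 the 3 genes were close together, and in replicate 1 they were spread out, with S100A6 near its DOX mean and S100A2 well below. Over the 340 genes listed lower, the median deviation was -0.29 in replicate 1, -0.37 in replicate 2 and -0.44 in replicate 3. S100A2 and S100A4 lay below these medians in all 3 peptide E libraries, and S100A6 lay above the median in replicate 1 and below it in the other 2. The 340 genes include many with low values, whose deviations the added 1 shrinks.

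**Figure D2:**
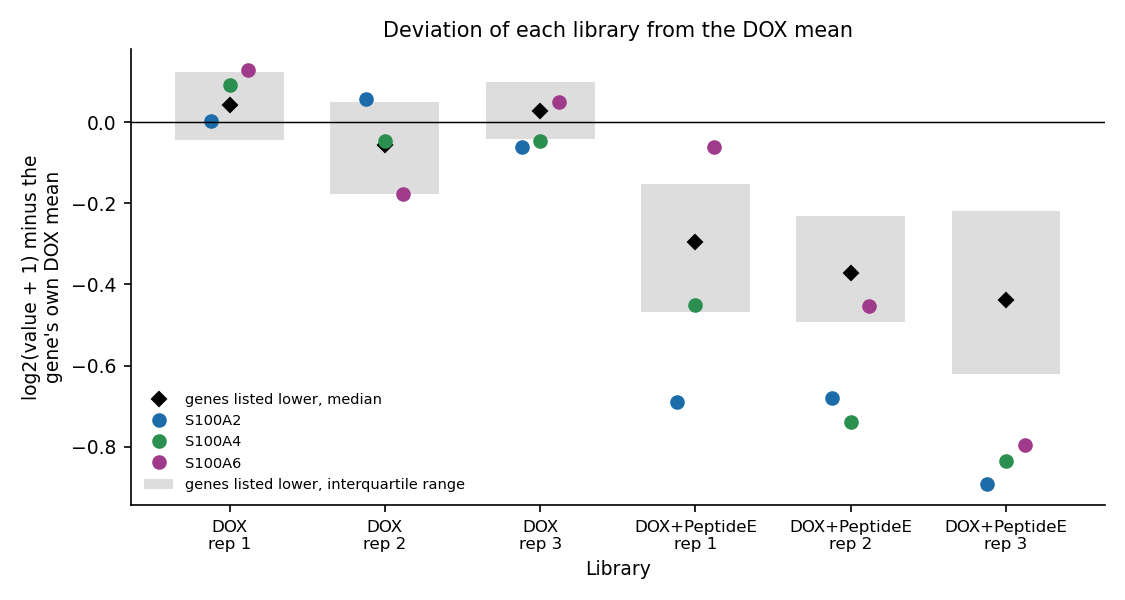
Deviation of log2(value + 1) from the gene's own DOX mean (vertical axis, log2 units) in each of the 6 libraries (horizontal axis), for the 3 S100A genes (coloured points) and the 340 genes listed lower (black diamond, median; grey block, interquartile range). In peptide E replicate 1 S100A6 stays at -0.06 while S100A2 is at -0.69, and in replicate 3 the 3 genes lie between -0.89 and -0.79.

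The difference between replicates 1 and 3 was shared by other abundant genes. Of the 37 listed genes with a mean of at least 100, all of them listed lower, 33 had their highest peptide E value in replicate 1 and 33 had their lowest in replicate 3. Their median deviation was -0.18 in replicate 1, -0.46 in replicate 2 and -0.66 in replicate 3. S100A4 and S100A6 followed this order, and S100A2 had its highest peptide E value in replicate 2 by a narrow margin. Set against the medians of the abundant genes, S100A2 and S100A4 were lower in every peptide E library. S100A6 was higher in replicate 1, narrowly higher in replicate 2 (-0.45) and lower in replicate 3. The part of the shared library pattern in the S100A differences was not tested.

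Agreement between replicates differed among the 3 genes. The coefficient of variation (CV, SD as a percentage of the mean) among DOX libraries was 4.05% for S100A2, 5.63% for S100A4 and 10.8% for S100A6. Among peptide E libraries it was 8.12%, 14.3% and 25.5%. Each gene was thus more variable with peptide E than without, and S100A2 was the least variable in both groups. The 37 abundant genes had median CVs of 8.38% with DOX and 17.1% with peptide E. S100A2 had the smallest DOX CV of the 37. S100A6 had the second largest peptide E CV, after the 25.6% of COX7A1, which encodes a respiratory chain subunit.

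**Figure D3:**
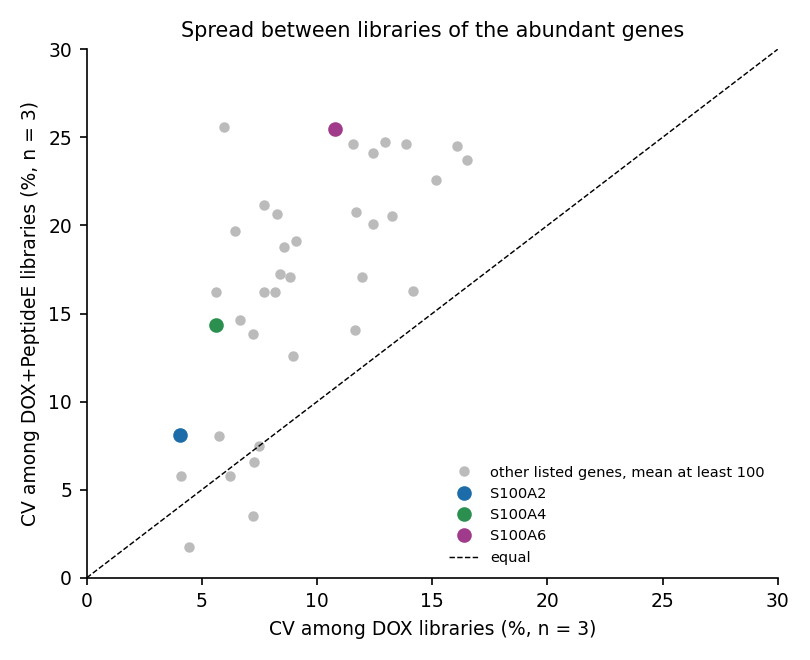
CV among the 3 peptide E libraries (vertical axis, %) against CV among the 3 DOX libraries (horizontal axis, %) for the 37 listed genes with a mean of at least 100, with the S100A genes coloured and a dashed line of equal CV. S100A2 (4.05% and 8.12%) lies at the left edge and S100A6 (10.8% and 25.5%) near the top.

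Set against other listed genes, S100A2 and S100A4 combined a high level with a large change. By mean value over the 6 libraries, S100A6 was number 4 of 633, S100A2 number 11 and S100A4 number 24, on the deposited scale. Among the 37 abundant genes, ordered from the lowest log2 difference, S100A2 was number 2, S100A4 number 4 and S100A6 number 18. The median log2 difference of these 37 was -0.43, beside -0.44 for S100A6. Among all 340 genes listed lower, 5.29% had a log2 difference at or below that of S100A2, 7.65% at or below that of S100A4 and 34.4% at or below that of S100A6. These shares depended on the pseudocount, since a larger one shrinks the changes of genes with low values. They were 23.5%, 28.8% and 62.4% with a pseudocount of 0.1, and 0.882%, 2.65% and 12.9% with 5. They also depended on single libraries. The share for S100A6 was 72.9% without peptide E replicate 3 and 17.6% without peptide E replicate 1, that for S100A4 was 11.8% without peptide E replicate 3, and that for S100A2 was 8.53% without DOX replicate 2.

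**Figure D4:**
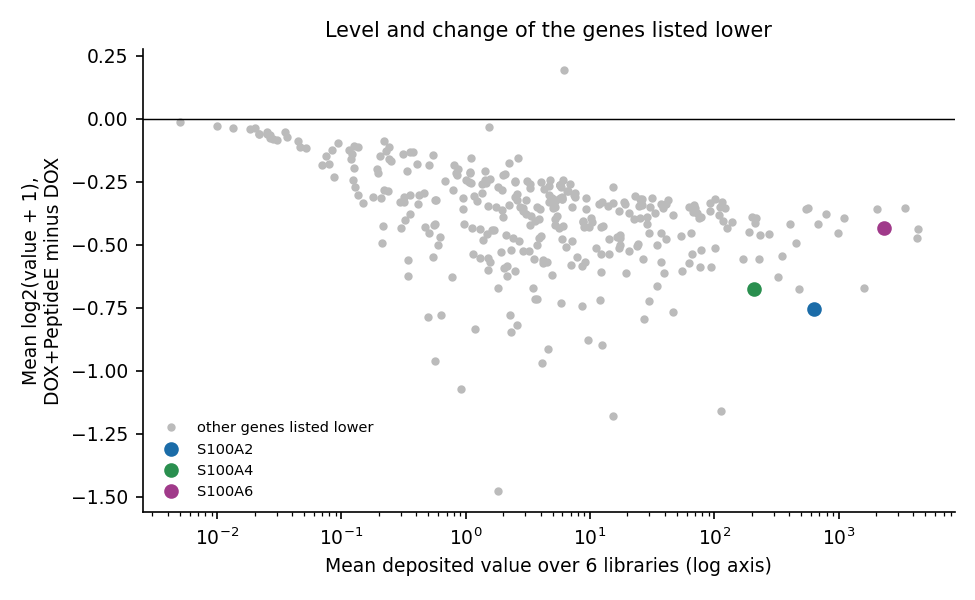
Difference in mean log2(value + 1), DOX+PeptideE minus DOX (vertical axis), against the mean deposited value over 6 libraries (horizontal log axis) for the genes listed lower, with the S100A genes coloured. S100A2 (-0.75) and S100A4 (-0.68) lie near the lower edge of the abundant genes, and S100A6 (-0.44) lies among them.

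Ratios between the members were formed within each library, where a scaling factor of the library cancels. S100A2 over S100A4 was 2.91, 3.32 and 3.06 in the DOX libraries and 2.62, 3.23 and 2.98 with peptide E. The 2 genes thus kept nearly the same proportion in both groups, with overlapping ranges. The log2 ratio differed between the groups by -0.08, less than its SD of 0.097 among DOX libraries and 0.15 among peptide E libraries, and without peptide E replicate 1 the difference was 0.0041.

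S100A2 over S100A6 was 0.276, 0.355 and 0.279 with DOX and 0.195, 0.257 and 0.281 with peptide E. The peptide E ratios were lower in replicates 1 and 2, but replicate 3 was at the level of the DOX libraries. The log2 ratio differed by -0.32, with SDs of 0.20 and 0.28. Without peptide E replicate 1 it differed by -0.16, and without DOX replicate 2 by -0.20. S100A4 over S100A6 gave a log2 difference of -0.24, with SDs of 0.12 and 0.18. Its peptide E replicate 3 (log2 ratio -3.40) also fell within the DOX range of -3.45 to -3.23. So S100A6 was on average less reduced than the other 2 genes, but in none of the 3 pairs did the within-library ratios of the groups separate.

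**Figure D5:**
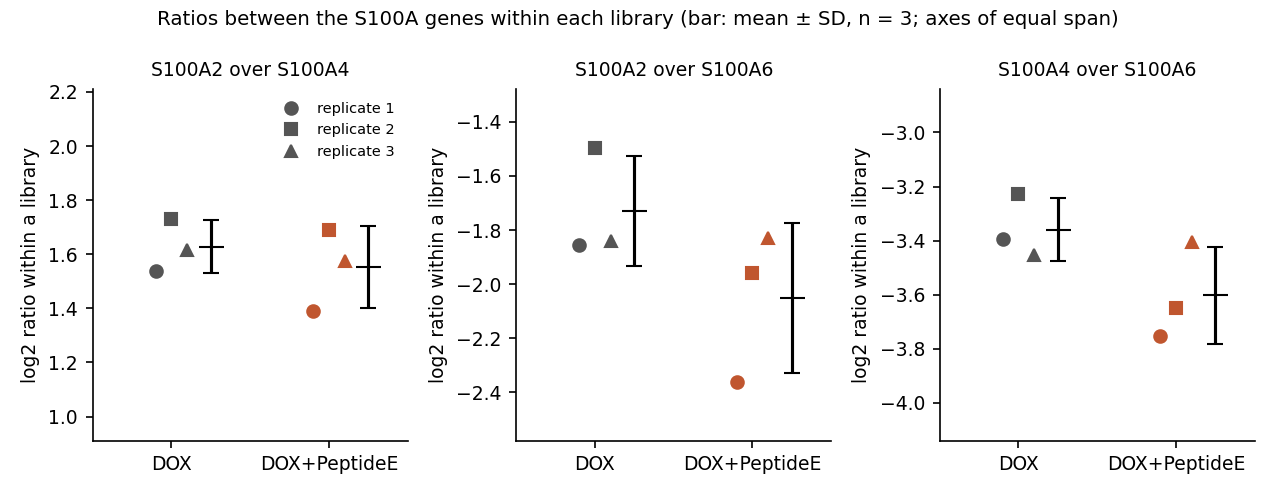
Log2 ratio of each pair of S100A genes within each library (vertical axes, equal span) for the 3 DOX and 3 DOX+PeptideE libraries, with mean ± SD beside the points. The groups overlap in all 3 pairs, and the difference between group means is -0.08 for S100A2 over S100A4, -0.32 for S100A2 over S100A6 and -0.24 for S100A4 over S100A6.

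The listed S100A genes are neighbours in the genome. In the RefSeq gene table of the cat assembly F.catus_Fca126_mat1.0, which holds 14 genes named S100A, 12 of them share a chromosome. Along it S100A2, S100A3, S100A4, S100A5 and S100A6 follow one another, with 1 uncharacterized locus, LOC109495853, between S100A2 and S100A3. The listed genes thus alternate with S100A3 and S100A5, which are not listed and were not analysed here. None of the 5 genes next to this stretch on either side is listed. The other 11 S100A genes of the reference, among them the myeloid genes S100A8, S100A9 and S100A12 and the annexin partner S100A10, are likewise not in the table. Absence from the table says nothing of whether a gene is expressed or differs.

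Genes with a profile like that of each member were ranked by the root mean square difference of their log2 deviations over the 6 libraries, among 412 other listed genes with a symbol whose larger group mean was 1 or more. This measure of likeness follows the size of the change as well as its course over libraries. For S100A2 the closest were GKN1, which encodes a secreted stomach protein (0.056), PI3, the elastase inhibitor elafin (0.12), S100A4 itself (0.12), KRT15, a keratin of basal epithelium (0.12), and VSIG4, a complement receptor of the immunoglobulin family (0.13). GKN1 had means of 34.5 ± 0.624 and 19.5 ± 1.51, PI3 of 66.7 ± 2.14 and 43.6 ± 3.38, and KRT15 of 37.1 ± 1.95 and 22.1 ± 1.45 (SD, n = 3 each, DOX and peptide E). VSIG4 was low, at 2.04 and 1.01.

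For S100A4 the closest were SFN (stratifin), a 14-3-3 protein of epithelial cells (0.066), the simple-epithelial keratin gene KRT18 (0.091), IGFBP6, an insulin-like growth factor binding protein (0.11), the glutathione transferase gene GSTM3 (0.11) and VSIG4 (0.11). SFN had means of 42.9 ± 5.11 and 26.7 ± 2.94, and GSTM3 of 396 ± 30.5 and 259 ± 54.9 (SD, n = 3 each). S100A2 came at number 8 in this order. None of the genes named here as closest to S100A2 or S100A4 had groups that overlapped. They were chosen for like deviations in these same libraries, so nothing is read from this. Over all listed genes, 76.1% had groups that did not overlap, and 32.7% were lower without overlap.

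The closest to S100A6 were other genes. They were DUSP23, a phosphatase gene (0.056), DNPH1, a nucleotide hydrolase gene (0.061), PHPT1, a histidine phosphatase gene (0.065), and the mitochondrial genes MRPL12, of the ribosome (0.067), and MICOS13, of the inner membrane (0.070). DNPH1 had means of 266 ± 30.8 and 196 ± 48.3, and PHPT1 of 244 ± 39.2 and 185 ± 45.3 (SD, n = 3 each). Like S100A6, all 5 had overlapping groups, but they too were chosen for like deviations in these same libraries. Nothing is therefore read from this, and over all listed genes 76.1% had groups that did not overlap. S100A6 was only number 85 in the order of likeness to S100A2 and number 46 in that to S100A4.

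Few genes of S100 biology are listed. None of 11 receptors and cell surface partners, among them AGER and TLR4, and none of 5 other S100 symbols, among them S100B and S100P, is in the table. Of 22 intracellular binding partners 2 are listed. MDM2, the p53 ubiquitin ligase, which S100 proteins can bind along with p53, was lower at 322 ± 23.3 with DOX and 234 ± 15.4 with peptide E (SD, n = 3 each). AHNAK, a very large scaffold protein that binds S100A10 with annexin A2, was higher with peptide E, at 25.04 ± 1.05 and 47.4 ± 13.2 (SD, n = 3 each). The groups overlapped in neither gene. In the authors' deposited table their adjusted p-values are 8.39e-07 and 3.94e-04. Over all listed genes, 76.1% had groups that did not overlap and 56.7% have an adjusted p under 0.05 there. With 2 genes, nothing is read from this about the list.

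Of 67 other genes of EF-hand proteins, of which 65 have their symbol in the cat RefSeq table, 3 are listed, all lower. They encode muscle proteins: MYL7, an atrial myosin light chain, at 158 ± 11.8 and 70.1 ± 5.24, TNNC1, the calcium sensor of slow and cardiac muscle, at 28.4 ± 2.39 and 20.5 ± 6.88, and MYL4, an atrial light chain, at 6.73 ± 1.92 and 5.11 ± 0.68 (SD, n = 3 each). The groups overlapped in TNNC1 and MYL4, so 1 of the 3 had separate groups, against 76.1% of all listed genes. An adjusted p under 0.05 is given to 2 of the 3 in the authors' deposited table, and to 56.7% of all its genes, and 53.7% of all its genes are listed lower. Their median log2 difference was -0.50, that of TNNC1, against -0.36 over all genes listed lower. Over all listed genes, higher ones included, the median was -0.11. With 3 genes, all listed lower, nothing is read from these medians. The list of 67 is not complete, since MYL6B, EFCAB10 and CGREF1, also EF-hand family genes, are listed lower and are not in it. Whether further ones are listed higher was not looked up.

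S100A2 and S100A4 are each used as markers of a cell state, and lists of other markers of these states were looked up in the table. Of 12 basal or squamous epithelial markers, 11 of them in the cat RefSeq table by symbol, 3 are listed, KRT15, KRT17 and SFN. All 3 were lower with an adjusted p under 0.05 in the authors' deposited table, where 24.2% of all genes are, and with so few genes nothing is read from this about the list. KRT17 was low, at 2.84 ± 0.325 and 1.49 ± 0.0529 (SD, n = 3 each), and the median log2 difference of the 3 was -0.66. The other members of that list, among them KRT5, KRT14 and TP63, are not listed. Of 21 further epidermal differentiation genes only 12 have their symbol in the cat RefSeq table, and of these only SBSN (suprabasin) is listed, at 4.90 ± 1.57 and 2.52 ± 0.301 (SD, n = 3 each), with an adjusted p of 1 in the authors' deposited table. These epithelial and epidermal lists are not complete. The related genes KRT16, SERPINB5, TRIM29, LCE6A and PI3 are outside them and are listed lower, and whether further ones are listed higher was not looked up. Of 14 fibroblast or mesenchymal markers, VIM, FN1, COL1A1 and ACTA2 among them, none is listed, so S100A4 is not accompanied in the table by any other marker of that list. Of 9 myeloid and 5 endothelial markers none is listed either.

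The labelled origin, kidney, was not tested, since the table holds only genes marked as differing between the groups. Of 14 renal tubular epithelial markers 5 are listed, all lower with peptide E: KRT18 at 589 ± 70.3 and 369 ± 63, KRT7 at 415 ± 58.8 and 285 ± 46.4, AQP1 at 2.98 ± 0.14 and 2.19 ± 0.24, KRT19 at 2.60 ± 0.615 and 1.59 ± 0.239, and HAVCR1 at 1.21 ± 0.252 and 1 ± 0.386 (SD, n = 3 each). Over all listed genes, 53.7% are listed lower. The median log2 difference of the 5 markers was -0.46, that of KRT19, against -0.36 over all genes listed lower. AQP1, KRT19 and HAVCR1 were low, and at such values the pseudocount shrinks the difference. An adjusted p under 0.05 is given to 3 of the 5, KRT18, KRT7 and AQP1, in the authors' deposited table, against 56.7% of all its genes. KRT19 and HAVCR1 did not pass this threshold there, and the groups of HAVCR1 overlapped. The part of the lower epithelial genes in the S100A differences was not tested.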

How the data were processed

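Libraries were grouped, and replicates numbered, by their titles, and table columns were matched to them by library name. The authors' deposited table holds, per gene and library, a normalized expression signal with no stated unit, made with RSEM according to the table's name. It also holds the authors' fold change (a ratio), its log2 value and the authors' p-values, from DESeq according to the same name. FastQC 0.11.9 and fastp 0.19.5 are named in the submitters' processing notes. For aligner, build, annotation and strand setting, the sources used here give nothing. Depth is unknown and sets no interval, so precision rests on 3 libraries per group.

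From the deposited values, means, SDs, differences of log2(value + 1), within-library ratios and profile distances were computed with pandas 2.3.3 in Python 3.11.15 and tested on simulated data. Filters on the mean were 1 for profile likeness, 5 in both groups for the offset between scales and 100 for the set of abundant genes, and the rest used every listed gene. No test was run, because the authors selected all 633 genes on this contrast. Members, gene lists and the naming rule (the S100A genes, listed genes of the lists, and the 5 most alike genes) were chosen with earlier results of these data known. COX7A1 was named after its value was seen. Alternatives were other pseudocounts, scalings, medians, filters and leaving out each library. All 633 symbols were found in the RefSeq table. Its build may differ from the authors', so no coordinates or sequences are given.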

Additional observations from a re-analysis of the deposited data

How the results depend on the processing

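No paired analysis was possible because the results come from no test and the labels do not say that equal replicate numbers join libraries. Alternatives for S100A6 were added after seeing the data, and the others were planned. With each library left out in turn, the log2 difference ranged from -0.79 to -0.68 for S100A2, from -0.79 to -0.59 for S100A4 and from -0.62 to -0.26 for S100A6. Groups that do not overlap fix the sign for the first 2 genes. On the log2(value + 1) scale the difference between the changes of S100A2 and S100A4 ranged from -0.15 to 0.0014, changing sign without DOX+PeptideE replicate 1. The share of lower genes at or below S100A2 ranged from 3.82% to 8.53%, that for S100A4 from 6.47% to 11.8% and that for S100A6 from 17.6% to 72.9%. Median-centring over the listed genes moved the log2 differences to -1.02 for S100A2, -0.95 for S100A4 and -0.71 for S100A6. The scale of the authors' fold changes gave -1.02, -0.94 and -0.70. Both scalings lower every gene by 1 constant, taken from listed genes, which were selected on this contrast. Nothing is therefore read from the nearness of their values. The shares were 23.5% and 28.8% for S100A2 and S100A4 with a pseudocount of 0.1, and 0.882% and 2.65% with 5. Pseudocounts of 0.1 and 5 and group medians moved the log2 differences of the 3 genes by less than their SD between libraries.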
